A study of Mus musculus with 24 samples.

Results

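Transcripts of the transforming growth factor beta (TGF-beta) family were followed in mouse lung and heart: the ligands Tgfb1, Tgfb2 and Tgfb3, the receptors Tgfbr1, Tgfbr2 and Tgfbr3, the inhibitor Smad7, the activin subunit Inhba and the stress-induced family member Gdf15. The genes were chosen by symbol. Of the 9 listed genes, 8 matched a probe set of the array, out of 18193 genes with a value, and Gdf15 was not analysed here. Where a gene had several probe sets, the brightest on average across the 24 arrays stood for it, and the others served as a check.

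The study asked how particulate matter acts on lung and left ventricle in a mouse model of cardiac failure. Total RNA was measured on Affymetrix arrays in 8 groups of 3 arrays. All mice were CD-1, 20 weeks old and labelled male. Wild-type (WT) mice were compared with dnCREB mice, whose cardiomyocytes make a dominant negative CREB1, a transcription factor, from the cardiomyocyte-specific alpha myosin heavy chain promoter. In each genotype and tissue, 1 group received phosphate-buffered saline (PBS) and 1 group received particulate matter (PM) at 20 mg/kg with particles of 1.9 µm. The PM labels give a harvest at 36 h, worded for lung also on the heart arrays. Whether same-numbered lungs and hearts were taken from 1 animal is not given in the labels.

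TGF-beta ligands are secreted in a latent form and held in the matrix by latent TGF-beta binding proteins until integrins or proteases release them. The free ligand binds the type II receptor (Tgfbr2), which recruits and phosphorylates the type I receptor (Tgfbr1), and Smad2 and Smad3 then carry the signal to the nucleus, while the type III receptor (Tgfbr3, betaglycan) presents ligand, Tgfb2 above all. Smad7 is induced by the pathway and blocks the type I receptor. In the heart the pathway is best known for driving fibroblasts to make collagen, and in the lung for its part in fibrosis and repair.

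The 250 bases upstream of the Tgfb2 and Tgfb1 starts are shown because these are the ligands with the largest and the smallest difference between genotypes in the heart. They are RefSeq sequence of GRCm38.p6, written 5′ to 3′ on the gene's strand and ending just before the start. Tgfb2 lies on the minus strand, at chr1:186705990-186706239, and Tgfb1 on the plus strand, at chr7:25686752-25687001. Capitals mark the core CREB motif (TGACG or its reverse complement CGTCA) and the Smad motif (CAGAC or its reverse complement GTCTG).
Tgfb2: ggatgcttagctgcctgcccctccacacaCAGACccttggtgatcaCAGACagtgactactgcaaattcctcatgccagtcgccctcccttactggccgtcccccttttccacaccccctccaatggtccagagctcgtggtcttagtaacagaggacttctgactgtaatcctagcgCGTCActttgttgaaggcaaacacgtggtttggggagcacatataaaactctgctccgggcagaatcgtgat
Tgfb1: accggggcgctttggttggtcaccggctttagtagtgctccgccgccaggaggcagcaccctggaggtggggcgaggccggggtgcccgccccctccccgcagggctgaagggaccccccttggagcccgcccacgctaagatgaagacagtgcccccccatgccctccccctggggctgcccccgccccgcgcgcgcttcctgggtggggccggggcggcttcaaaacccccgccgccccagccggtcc
The Tgfb2 stretch held 1 core CREB motif, CGTCA from -72 to -68, and 2 Smad motifs, CAGAC from -221 to -217 and from -204 to -200, counted back from the start. The Tgfb1 stretch held none of these letters. Over 32851 RefSeq promoters of the same length, 17.8% held the core CREB motif, 42.2% the Smad motif, 1.55% the full cyclic AMP response element TGACGTCA and 6.75% the AP-1 motif TGANTCA. Neither of these last motifs was found in the Tgfb2 or Tgfb1 stretch. Such matches describe letters only. Of the 9 genes, 6 had an entry in the promoter table.

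The values are log2 expression values, and the array medians were 4.09 to 4.19 for lung but only 3.25 to 3.37 for heart, so that levels were not compared between the tissues. The labelled tissues carried their markers: the log2 sum of 5 cardiomyocyte markers was 18.62 to 18.99 in the heart arrays, and that of 6 alveolar and airway markers was 16.86 to 17.35 in the lung arrays against at most 6.69 in heart. A Creb1 probe set that marks the transgene, chosen after its values were seen, lay between 9.05 and 12.00 in dnCREB hearts and between 2.51 and 3.29 in WT hearts. Its lung values lay between 3.34 and 4.29. The sex-chromosome transcripts went against the labels in part: Xist was high in all 6 WT hearts and in 1 of the 6 dnCREB hearts, while the Y-linked Eif2s3y was high in the other 5. In lung, 4 WT arrays had high Eif2s3y and 2 had high Xist, and of the dnCREB arrays 4 had high Xist and 2 had neither. All WT PBS lungs had high Eif2s3y (9.24 to 10.19), while all WT PBS hearts had high Xist (12.05 to 13.05). Replicates 1 and 2 of dnCREB PM had high Xist in lung and high Eif2s3y in heart. As labelled, these same-numbered lungs and hearts thus do not match in sex-chromosome transcripts. Skeletal muscle transcripts were high in 5 lung arrays: dnCREB PM replicate 3, replicates 1 and 3 of dnCREB PBS, and replicates 1 and 2 of WT PM. WT PBS replicate 1 and WT PM replicate 2 correlated least with the rest of the lung arrays.

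In the left ventricle, Tgfb2 and Tgfb3 were the genes of the family that set dnCREB hearts apart, with levels 18.6-fold and 16.9-fold those of WT hearts under PBS. Tgfb1 rose as well, about 1.93-fold, as did the receptors Tgfbr1 and Tgfbr2, while Tgfbr3 and Smad7 did not pass the test. Differences were tested with limma in each tissue, over all genes with at least 3 of the tissue's arrays above a log2 value of 4, and a difference was called at a Benjamini-Hochberg adjusted p under 0.05. Under PBS 5 of the 7 genes tested were called, all higher in dnCREB, where 18.8% of all 9962 genes tested were called and 13.2% were called higher. Under PM again 5 of 7 were called, all higher, where 20.5% of all genes were called and 11.4% were called higher. The median change of the 7 genes was 0.99 log2 units under PBS, against 0.09 over all genes, and 1.33 under PM, against 0.02 over all genes. The replicates are arrays that the labels number within a group, and p-values measure the spread between them.

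Tgfb2, the ligand that depends most on betaglycan, had log2 levels of 7.81, 8.46 and 7.58 in the WT PBS hearts and of 8.03, 7.78 and 8.05 in the WT PM hearts. In the dnCREB hearts it stood at 12.39, 11.35 and 12.75 under PBS and at 11.81, 12.14 and 12.47 under PM. All 6 dnCREB hearts lay above all 6 WT hearts, with no overlap and a gap of almost 3 log2 units. Under PBS the genotypes differed by 4.21 ± 0.34 (SE) log2 units (adjusted p = 6.9e-05). Under PM they differed by 4.19 ± 0.34 (adjusted p = 1.1e-04), which is 18.2-fold.

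Tgfb3, the ligand otherwise known from palate and lung development, was measured at 5.71, 5.69 and 5.66 in WT PBS hearts and at 6.51, 5.60 and 5.74 in WT PM hearts. The dnCREB hearts gave 9.84, 9.01 and 10.44 under PBS and 8.84, 10.03 and 10.41 under PM. The genotypes did not overlap under either treatment, and the dnCREB hearts spread over a wider range than the WT PBS hearts. Tgfb3 was higher by 4.08 ± 0.44 (SE) with PBS (adjusted p = 3.2e-04) and by 3.81 ± 0.44 with PM (adjusted p = 5.0e-04), the latter 14.0-fold.

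Tgfb1, the most widely expressed ligand of the 3, differed far less. Its log2 levels were 7.73, 7.56 and 7.67 in WT PBS hearts, 7.96, 7.90 and 7.65 in WT PM hearts, 8.34, 9.09 and 8.37 in dnCREB PBS hearts and 9.39, 8.39 and 8.47 in dnCREB PM hearts. Each dnCREB heart was above each WT heart, but the lowest dnCREB value exceeded the highest WT value by less than 0.5. The rise was 0.95 ± 0.27 (SE) with PBS (adjusted p = 0.0360) and 0.91 ± 0.27 with PM (adjusted p = 0.0388). It kept its direction but lost the call when arrays were quantile normalized (adjusted p = 0.0909 under PBS and 0.0712 under PM), and adjusted p was 0.0581 to 0.1020 when any of 5 of the 6 arrays compared under PBS was left out. Under PM the call was lost without any of WT PM replicates 1, 2 and 3 or dnCREB PM replicate 1, at adjusted p of 0.0713 to 0.1147.

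**Figure D1:**
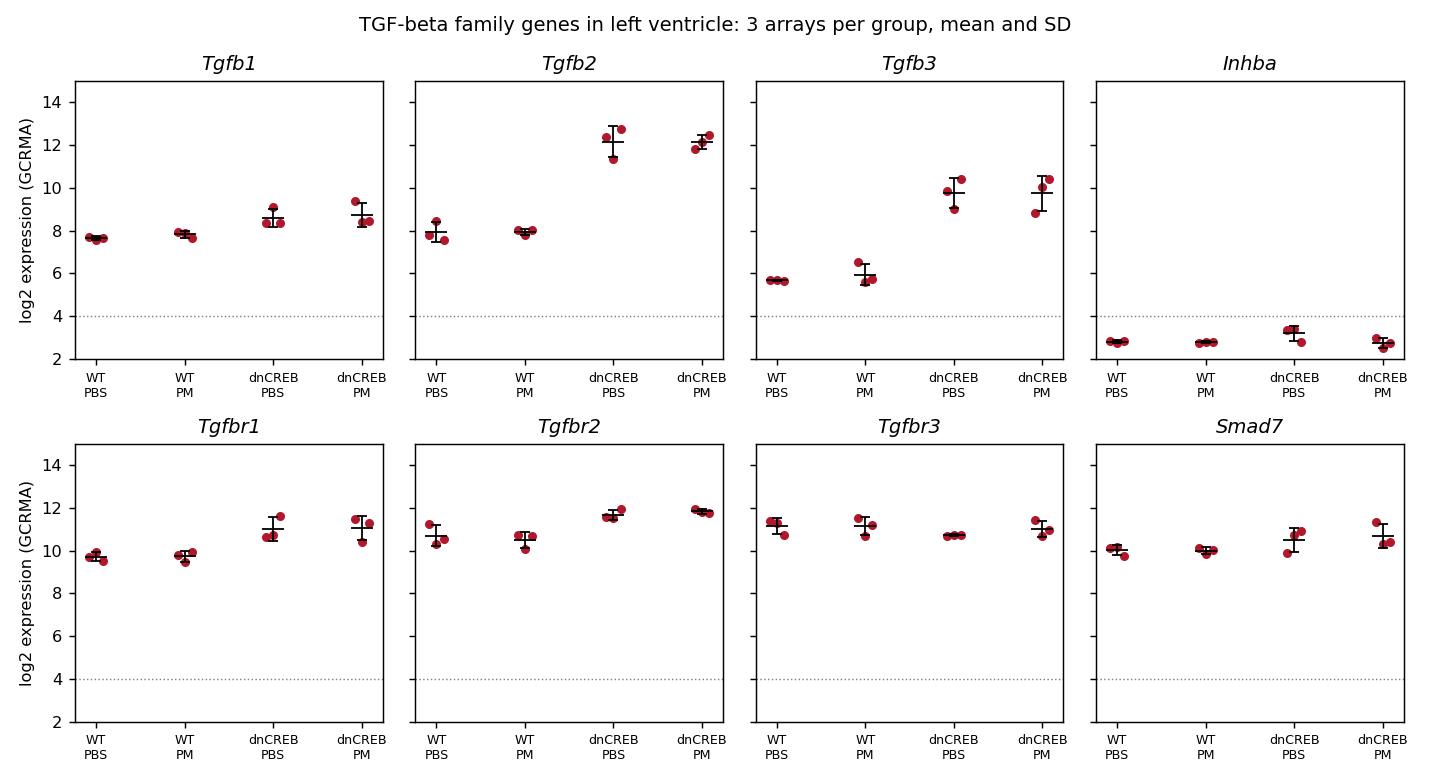
Log2 expression (GCRMA) of the 8 measured genes in left ventricle, 1 panel per gene, with WT and dnCREB hearts under PBS and PM along the x axis. Points are the 3 arrays of a group, bars the mean and SD, and the dotted line the log2 level of 4 used as a filter. Tgfb2 and Tgfb3 lie near 8 and 6 in WT hearts and near 12 and 10 in dnCREB hearts, and Inhba lies under 4 in all groups.

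Both signalling receptors were higher in dnCREB hearts. Tgfbr1, the type I receptor kinase, was measured at 9.71, 9.92 and 9.50 in WT PBS hearts, 9.78, 9.45 and 9.96 in WT PM hearts, 10.64, 10.74 and 11.63 in dnCREB PBS hearts and 11.50, 10.42 and 11.27 in dnCREB PM hearts. The genotypes did not overlap. Its rise was 1.29 ± 0.32 (SE) under PBS (adjusted p = 0.0183), which is 2.45-fold, and 1.33 ± 0.32 under PM (adjusted p = 0.0155), which is 2.52-fold. The call under PBS was lost without WT PBS replicate 1, WT PBS replicate 3 or dnCREB PBS replicate 3 (adjusted p = 0.0501, 0.0669 and 0.0649), and under PM without WT PM replicate 2, dnCREB PM replicate 1 or dnCREB PM replicate 3 (adjusted p = 0.0564, 0.0532 and 0.0547).

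Tgfbr2, the type II receptor that binds ligand first, was measured at 11.25, 10.30 and 10.56 in WT PBS hearts and at 10.74, 10.07 and 10.70 in WT PM hearts. The dnCREB hearts gave 11.56, 11.54 and 11.96 under PBS and 11.96, 11.79 and 11.76 under PM, again above all WT hearts. The rise was 0.99 ± 0.25 (SE) under PBS (adjusted p = 0.0220), which is 1.98-fold, and 1.33 ± 0.25 under PM (adjusted p = 0.0056). Without WT PBS replicate 2, WT PBS replicate 3 or dnCREB PBS replicate 3 the call under PBS was lost (adjusted p = 0.0792, 0.0761 and 0.0893), and the call under PM held with each array left out.

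Tgfbr3, the co-receptor betaglycan, did not pass in the heart. Its levels were 11.39, 11.31 and 10.72 in WT PBS hearts, 11.51, 10.68 and 11.21 in WT PM hearts, 10.67, 10.75 and 10.75 in dnCREB PBS hearts and 11.43, 10.66 and 10.94 in dnCREB PM hearts, so the groups overlapped. The difference was -0.42 ± 0.26 (SE) with PBS (adjusted p = 0.2807) and -0.12 ± 0.26 with PM (adjusted p = 0.7806).

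Smad7, the inhibitory Smad, was measured at 10.14, 10.19 and 9.76 in WT PBS hearts and at 10.14, 9.83 and 10.03 in WT PM hearts. In dnCREB hearts it stood at 9.88, 10.71 and 10.93 under PBS and at 11.33, 10.32 and 10.39 under PM. The groups overlapped under PBS and did not under PM, and neither difference was called (0.48 ± 0.31 (SE), adjusted p = 0.3119, and 0.68 ± 0.31, adjusted p = 0.1544). Inhba, which encodes the subunit of activin A, was under 4 in all 12 hearts, between 2.54 and 3.41, and was not tested there.

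The dnCREB hearts varied among themselves in a gene-specific way. Under PBS, replicate 3 was the highest and replicate 2 the lowest for Tgfb2 and for Tgfb3. Under PM, replicate 1 was the lowest for these ligands and the highest for Tgfb1, Tgfbr1, Tgfbr2, Tgfbr3 and Smad7.

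Sex-chromosome class nearly coincided with genotype in the heart, and the 2 could be separated only through dnCREB PM replicate 3, the dnCREB heart with high Xist. In that array Tgfb2 stood at 12.47, Tgfb3 at 10.41, Tgfbr1 at 11.27, Tgfbr2 at 11.76 and Tgfb1 at 8.47, each above all 6 WT hearts, which shared its high Xist. With the class as a term in the model, Tgfb2 remained called under PBS (4.71 ± 0.62 (SE), adjusted p = 0.0050) and under PM (4.51 ± 0.49, adjusted p = 0.0013), and so did Tgfb3 (5.05 ± 0.74, adjusted p = 0.0085, and 4.46 ± 0.58, adjusted p = 0.0030). Tgfbr1, Tgfbr2 and Tgfb1 kept their direction in that model and were not called. The difference of Tgfbr1 was 1.61 ± 0.59 with PBS (adjusted p = 0.1871) and 1.54 ± 0.46 with PM (adjusted p = 0.0693), and that of Tgfbr2 was 0.87 ± 0.48 (adjusted p = 0.3953) and 1.25 ± 0.37 (adjusted p = 0.0677). The standard errors grew for both receptors, while the difference was larger than above for Tgfbr1 and slightly smaller for Tgfbr2. For Tgfb1 the difference also shrank, to 0.53 ± 0.49 (adjusted p = 0.6481) and 0.63 ± 0.38 (adjusted p = 0.3646).

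PM itself gave no called difference in the heart. Of the 7 genes tested, 0 were called by limma in WT hearts, where 0.0100% of all genes were called, and 0 in dnCREB hearts, where 0% were called. At an unadjusted p under 0.05 the count was also 0 in both genotypes. The largest change in WT hearts was 0.27 ± 0.44 (SE) for Tgfb3, and the largest in dnCREB hearts was 0.29 ± 0.26 for Tgfbr3. For Tgfb2 the change was 0.00 ± 0.34 in WT and -0.02 ± 0.34 in dnCREB hearts. The interaction of genotype and PM was called for 0 of the 7 genes (0% of all genes, and 0 of the 7 at an unadjusted p under 0.05), and ranged from -0.27 ± 0.62 (SE) for Tgfb3 to 0.35 ± 0.36 for Tgfbr2.

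**Figure D2:**
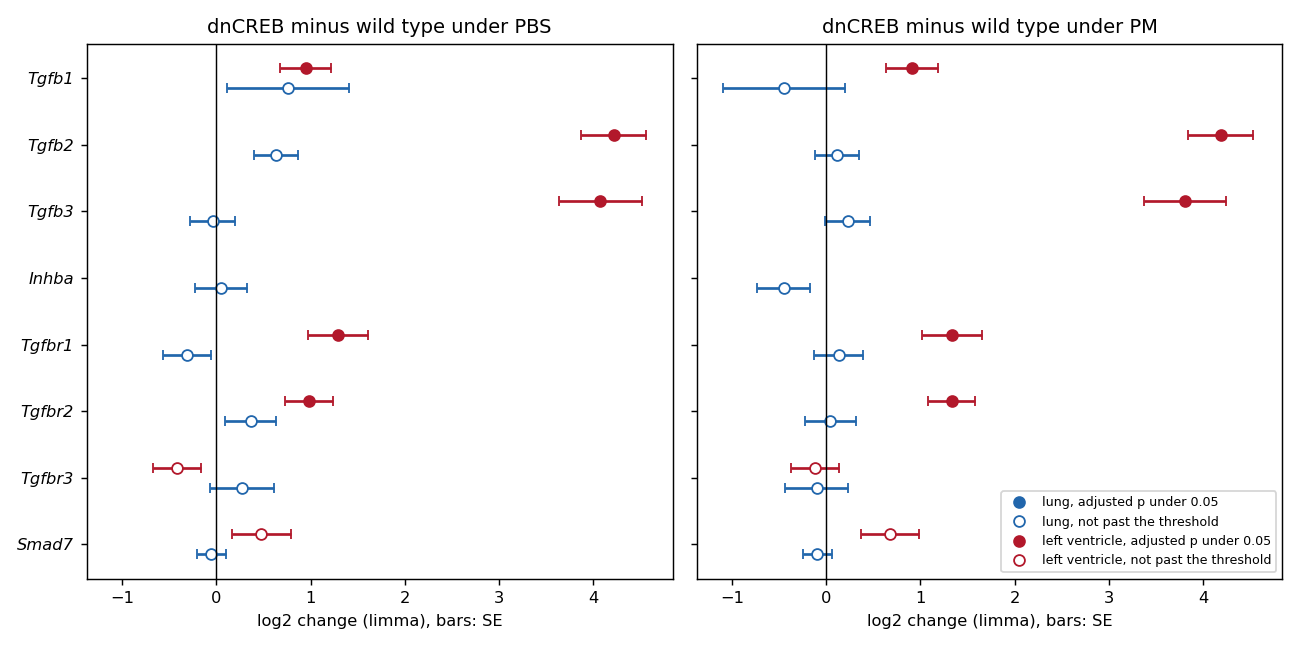
Log2 change of dnCREB against WT under PBS (left) and PM (right) for each gene, from limma, with bars for the SE. Filled points passed an adjusted p of 0.05. In left ventricle (red) Tgfb2 and Tgfb3 lie near 4, and in lung (blue) none of the 8 genes passed. Inhba was tested in lung only.

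The genotype difference of Tgfb2 and Tgfb3 was larger in heart than in lung, as tested on the difference of the 2 changes in a joint fit of all 24 arrays. The heart change exceeded the lung change by 3.58 ± 0.43 (SE) for Tgfb2 with PBS (adjusted p = 3.9e-05) and by 4.07 ± 0.43 with PM (adjusted p = 1.5e-05). For Tgfb3 the excess was 4.11 ± 0.51 with PBS (adjusted p = 5.8e-05) and 3.58 ± 0.51 with PM (adjusted p = 2.6e-04). Tgfbr1 was called under PBS (1.60 ± 0.42, adjusted p = 0.0225) and not under PM (1.20 ± 0.42, adjusted p = 0.0891), and Tgfbr2 was called under PM (1.29 ± 0.38, adjusted p = 0.0414) and not under PBS (0.62 ± 0.38, adjusted p = 0.3660). The Tgfbr1 call held in 18 of 23 alternative settings and the Tgfbr2 call in only 7 of 23, with no change of sign in either. The probe sets second in brightness gave no called tissue difference when all probe sets were tested together. Tgfbr1 stood at -0.69 ± 0.51 under PBS and 0.15 ± 0.51 under PM, and Tgfbr2 at -1.75 ± 0.79 under PBS and 0.155 ± 0.79 under PM. Both receptor calls thus rest on the brightest probe set. With the lung arrays high in skeletal muscle left out, the excess was 1.57 ± 0.51 for Tgfbr1 under PBS and 1.21 ± 0.56 for Tgfbr2 under PM. These differences were close to those of all arrays, with larger standard errors. That fit left dnCREB PBS replicate 2 and WT PM replicate 3 alone in their lung groups, so its loss of both calls is not read as a part of skeletal muscle. Tgfb1, Tgfbr3, Smad7 and Inhba were not called. In all, 3 of 8 genes were called in each comparison, where 8.01% of all genes were called under PBS and 8.15% under PM.

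The remaining Tgfb2 probe sets moved with the first. Under PBS the Tgfb2 probe set second in brightness was higher in dnCREB hearts by 5.64 ± 0.41 (SE) log2 units (adjusted p = 5.8e-05), with WT PBS hearts at 6.73, 6.76 and 6.25 and dnCREB PBS hearts at 12.22, 11.51 and 12.91. The one next in brightness was under 4 in all WT hearts and at 7.39, 6.30 and 8.02 in dnCREB PBS hearts, at least 9.41-fold higher (adjusted p = 3.4e-04). It passed the filter only through the dnCREB hearts, so that p is a description. The dimmest rose by 2.50 ± 0.68 (adjusted p = 0.0312) under PBS and differed by 2.00 ± 0.68 under PM without passing (adjusted p = 0.0680). The second Tgfbr3 probe set was lower in dnCREB PBS hearts, as the first was without passing, at 7.39, 7.01 and 6.97 against 8.28, 7.50 and 8.11 in WT (-0.84 ± 0.23, adjusted p = 0.0335), and differed by -0.18 ± 0.23 under PM (adjusted p = 0.6453). The probe sets of Tgfbr1 and Tgfbr2 second in brightness showed no called difference between genotypes in the heart (0.18 ± 0.37 and -0.11 ± 0.51 under PBS), so the receptor rises rest on the brightest probe set of each gene.

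Other genes of the pathway were read from a list of 56 in 6 groups, of which 42 passed the filter on low values in heart. Under PBS, 19 of the 42 were higher and 0 lower in dnCREB hearts, with a median change of 0.82 against 0.09 over all genes, of which 13.2% were higher. Under PM, 16 were higher and 1 lower, with a median of 0.88 against 0.02 over all genes, of which 11.4% were higher. The counts of the groups below stand against the same shares. The count under PBS was 11 to 17 with 1 array left out, the lowest value being reached without WT PBS replicate 1 and without dnCREB PBS replicate 3, was 12 when no filter was applied, and was 9 with the sex-chromosome class in the model. After centring of the arrays on their median it was 17 higher and 1 lower. No share over all genes in the same setting stands beside these alternative counts, so they are not read as an excess. Genes that passed the filter only through the hearts in which they are high had to differ, and counts over genes that passed are a description. Ltbp2, Inhbb and, under PM, Asns had WT hearts under 4, so their p-values below are a description too.

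Latency and release genes accounted for 5 of 8 tested under PBS, all higher. Ltbp2, a matrix protein of the latent TGF-beta binding protein family, went from 2.37 ± 0.62 (SD, n = 3) in WT PBS hearts to 9.33 ± 0.62 in dnCREB PBS hearts, at least 40.3-fold higher against the level of 4 (adjusted p = 4.3e-06), and was at least 28.9-fold higher under PM (adjusted p = 3.9e-06). It passed the filter only through the dnCREB hearts, so its p-values and its place in the counts are no support. Ltbp3, which tethers latent ligand, rose by 1.62 ± 0.18 (SE) under PBS (adjusted p = 3.9e-04). The integrin chains that pair to release latent ligand rose too, Itgav by 1.44 ± 0.19 (adjusted p = 0.0010) and Itgb8 by 2.37 ± 0.43 (adjusted p = 0.0043). Under PM 5 of 8 were again higher, including Ltbp3 (1.87 ± 0.18, adjusted p = 2.1e-04), Itgav (0.90 ± 0.19, adjusted p = 0.0103) and Mmp14, a membrane protease that can free latent ligand (1.42 ± 0.34, adjusted p = 0.0164).

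Among pathway targets 7 of 12 tested were higher under PBS and 6 of 12 under PM. Postn, the matrix protein periostin, went from 9.58 ± 0.66 (SD, n = 3) to 15.07 ± 0.33 under PBS, 45.0-fold (adjusted p = 1.2e-04), and from 10.02 ± 0.40 to 14.54 ± 1.03 under PM, 23.0-fold (adjusted p = 3.4e-04). Tgfbi, a matrix protein named for its induction by TGF-beta, rose by 1.69 ± 0.19 (SE) and 2.06 ± 0.19 (adjusted p = 4.2e-04 and 1.6e-04). Itgb5, an integrin chain, rose by 1.56 ± 0.19 and 1.52 ± 0.19 (adjusted p = 6.5e-04 and 7.3e-04). Col1a1, a chain of type I collagen, rose by 2.45 ± 0.46 under PBS (adjusted p = 0.0052), and Ccn2, connective tissue growth factor, by 2.64 ± 0.45 under PM (adjusted p = 0.0032).

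Inside the cell, 2 of 8 genes tested were higher under PBS and 3 of 8 under PM, beside 13.2% and 11.4% over all genes. Pmepa1, which dampens Smad signalling and is itself a target, rose by 2.35 ± 0.21 (SE) with PBS (adjusted p = 1.2e-04) and by 2.15 ± 0.21 with PM (adjusted p = 2.1e-04). Ski, a co-repressor of the Smads, rose by 0.40 ± 0.11 (adjusted p = 0.0239) and 0.52 ± 0.11 (adjusted p = 0.0073). Smad6, the inhibitory Smad beside Smad7, rose by 1.30 ± 0.32 under PM (adjusted p = 0.0173).

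The activin branch gave 3 higher of 6 tested under PBS and 1 higher and 1 lower under PM. Inhbb, the subunit of activin B, was under 4 in WT PBS hearts and at 6.90 ± 1.71 (SD, n = 3) in dnCREB PBS hearts, at least 7.44-fold higher (adjusted p = 0.0153). With its WT hearts under 4, its place in the count is a description. Fstl3, a secreted inhibitor that binds activin, rose by 2.06 ± 0.50 (SE) with PBS (adjusted p = 0.0167) and by 3.49 ± 0.50 with PM (adjusted p = 0.0013). Acvr1, a type I receptor, rose by 0.80 ± 0.23 under PBS (adjusted p = 0.0388), and Acvr2a, a type II receptor for activins, fell by 0.55 on the log2 scale under PM (adjusted p = 0.0048). The co-receptor group, Eng, Acvrl1 and Bambi, gave 0 called of 3 in either comparison. Of the stress regulators listed beside Gdf15, 2 of 5 tested were higher under PBS, Asns (1.65 ± 0.44, adjusted p = 0.0282) and Ddit3 (0.72 ± 0.21, adjusted p = 0.0344), and 1 of 5 under PM, Asns at least 4.37-fold (adjusted p = 0.0069). With the sex-chromosome class in the model, 0 genes of the activin branch were called under PBS, and its median change went from 0.97 to 0.27. The stress regulators then had 0 called under either treatment, and their median under PBS went from 0.32 to -0.21. In that model the latency genes gave 4 higher and the targets 4 higher under PBS, with medians of 1.75 and 1.90. No share over all genes in that model stands beside these counts.

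The genotype change was larger in heart than in lung for 12 of 48 pathway genes tested under PBS, smaller for 0, and larger for 11 and smaller for 1 under PM, where 8.01% and 8.15% of all genes were called in either direction. Postn exceeded its lung change by 5.34 ± 0.61 (SE) under PBS (adjusted p = 3.0e-05) and Pmepa1 by 2.71 ± 0.34 (adjusted p = 6.9e-05).

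**Figure D3:**
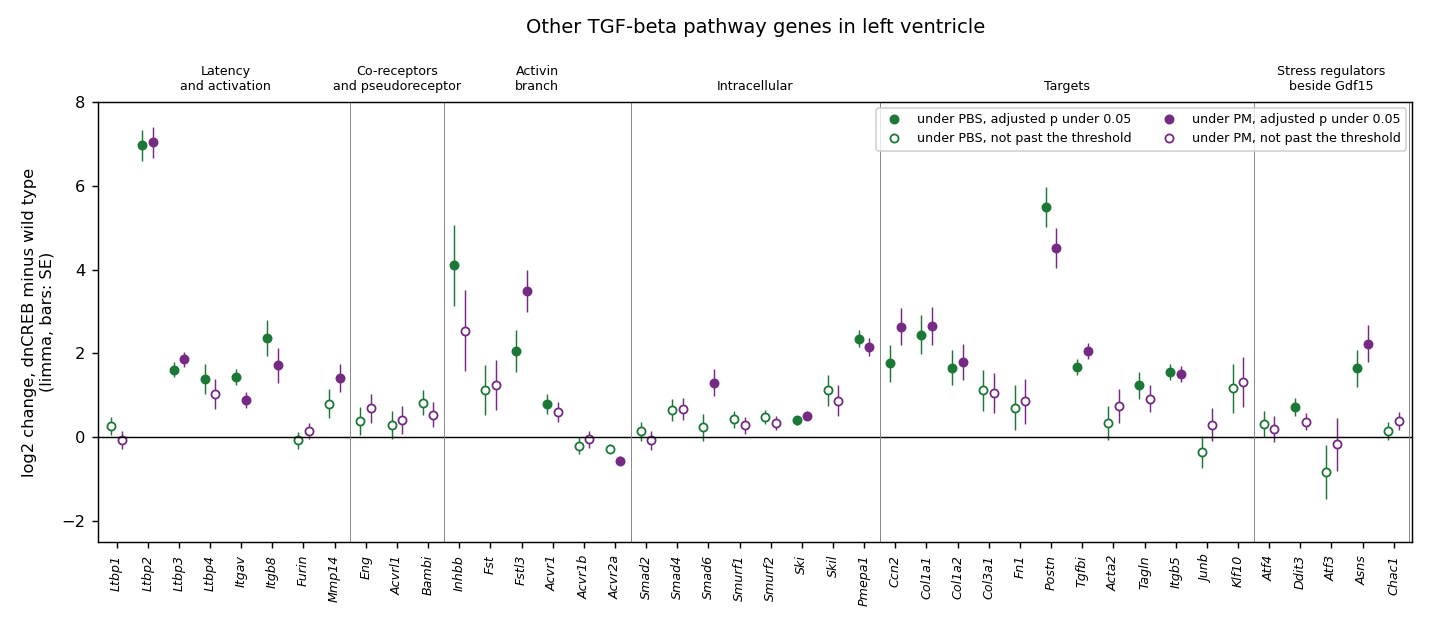
Log2 change of dnCREB against WT in left ventricle for the pathway genes that were tested, in their 6 groups, under PBS (green) and PM (purple), from limma, with bars for the SE. Filled points passed an adjusted p of 0.05. Ltbp2 near 7 and Postn at 5.49 and 4.52 lie highest, and Acvr2a under PM is the filled point below 0. Fitted changes of Ltbp2, Inhbb and, under PM, Asns give no bound, as their WT hearts lay under 4.

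Some marker transcripts from the fibroblast, macrophage and muscle lists differed by genotype in the same hearts. The counts below stand against 13.2% of all genes called higher under PBS (18.8% in either direction). Under PM the shares were 11.4% and 20.5%. Of 6 fibroblast markers (Pdgfra, Dcn, Lum, Tcf21, Col1a1 and Dpt), 5 were higher in dnCREB hearts under each treatment, and Col1a1 is also among the targets above. Their log2 sum was 14.78 to 14.94 in WT PBS and 14.80 to 15.05 in WT PM hearts, against 15.71 to 15.82 and 15.37 to 16.09 in dnCREB hearts. Of 7 macrophage markers, 1 was higher under PBS, near the share over all genes, and 5 under PM. Their sums were 11.73 to 12.75 and 11.28 to 11.89 in WT against 12.51 to 13.15 and 12.89 to 13.27 in dnCREB hearts. The sums overlapped under PBS. Of the atrial muscle markers, Nppa rose by 2.10 ± 0.33 (SE) (adjusted p = 0.0022) and Myl4 by 3.25 ± 0.92 (adjusted p = 0.0343) under PBS, and Nppa by 1.88 ± 0.33 under PM (adjusted p = 0.0040). Their sum was 12.60 to 13.99 in WT PBS and 13.43 to 14.18 in WT PM hearts, against 15.47 to 15.72 and 15.40 to 15.74 in dnCREB hearts, while the atrial markers Myl7 and Sln were under 4 in all hearts. Of 2 skeletal muscle markers tested, Acta1 was higher under both treatments, and 7 of the 9 listed were under 4 in all hearts. Neither muscle list rose as a whole, so Nppa, Myl4 and Acta1 are not read as atrial or skeletal muscle cells. Smooth muscle markers gave 1 higher of 3 under PBS and 0 under PM. Cardiomyocyte markers gave 0 higher and 1 lower of 5. The lymphocyte markers Cd3e, Cd3d and Cd79a were under 4 in all hearts. The part of any cell type in the rises of Tgfb2, Tgfb3 and the receptors was not tested. In whole tissue more cells of a type and more RNA per cell cannot be told apart.

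As a description over the 12 heart arrays, which share the split by genotype, the genes whose log2 values followed a ligand most closely by Pearson's r were Comp (0.989), Bend4 (0.987) and Bgn (0.986) for Tgfb2. For Tgfb3 they were Bgn (0.991), Aldh1a1 (0.988) and Tgfb2 itself (0.985). Camkk2 (0.951), Atp8b2 (0.944) and Coro1c (0.935) followed Tgfb1. The receptors had others, Mtpn (0.980), Adam9 (0.975) and Mical2 (0.974) for Tgfbr1 and Fermt3 (0.980), Lbp (0.976) and Marcksl1 (0.975) for Tgfbr2. Comp and Bgn encode matrix proteins, and Adam9 a membrane metalloprotease.

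In the lung 0 of the 8 genes passed the test in any comparison. PM in WT mice came nearest, with 0 of 8 called where 2.39% of all 11600 genes tested were called. At an unadjusted p under 0.05 there were 3 of 8 genes. Counts at an unadjusted p, here, below and for the heart above, have no share over all genes beside them. Whether they exceed that share was not tested. Tgfb2 was measured at 7.88, 8.27 and 7.85 in WT PBS lungs and at 8.83, 8.59 and 9.36 in WT PM lungs, without overlap, a difference of 0.93 ± 0.23 (SE) with an adjusted p of 0.0599. Over its alternative settings this difference ranged from 0.59 to 1.36 and adjusted p from 0.0414 to 0.4042. With all probe sets tested together, the other Tgfb2 probe sets gave 0.60, 0.72 and 0.61, from brightest to dimmest (adjusted p = 0.2661, 0.1181 and 0.1042). The groups did not overlap in the dimmest and overlapped in the others. Tgfb1 was measured at 5.76, 8.73 and 8.65 in WT PBS lungs and at 8.97, 9.77 and 9.63 in WT PM lungs, a difference of 1.74 ± 0.65 (adjusted p = 0.1305). WT PBS replicate 1 stood apart, and without it the difference was 0.76 ± 0.30 (adjusted p = 0.1877). Inhba was measured at 3.37, 3.24 and 3.49 in WT PBS lungs and at 4.86, 4.02 and 3.71 in WT PM lungs, with most arrays under 4. Against the level of 4 it was at least 1.15-fold higher (fitted difference 0.83 ± 0.28, adjusted p = 0.1081). Inhba passed the filter only through 3 PM lungs, so its p and its place in the counts are a description.

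The receptors and the other genes moved little with PM in WT lung. Tgfbr2 stood at 11.69, 12.87 and 12.86 under PBS and 12.90, 12.78 and 12.70 under PM, with the low value again in WT PBS replicate 1. Changes were -0.10 ± 0.26 (SE) for Tgfbr1, 0.32 ± 0.27 for Tgfbr2, -0.21 ± 0.34 for Tgfbr3, 0.32 ± 0.24 for Tgfb3 and 0.22 ± 0.15 for Smad7. Macrophage markers had a log2 sum of 11.97 to 12.95 in WT PBS and 13.30 to 14.03 in WT PM lungs, with 0 of 7 called. Skeletal muscle markers also stood apart, at 6.54 to 7.41 in WT PBS and 9.03 to 14.55 in WT PM lungs, as did adipocyte markers, at 8.63 to 10.86 and 11.09 to 12.15, and lymphocyte markers, at 8.86 to 9.87 and 9.96 to 10.32. Eif2s3y was high in 3 of 3 WT PBS lungs and in 1 of 3 WT PM lungs. For Tgfb2 the PM difference was 0.59 ± 0.23 (adjusted p = 0.1334) with the sex-chromosome class in the model and 1.25 ± 0.24 (adjusted p = 0.0883) with the skeletal muscle level in it. That class put the 2 dnCREB PBS lungs in which neither transcript was high with the Eif2s3y arrays. Both of these lungs were also high in skeletal muscle, so the class term is uncertain in lung. The part of the macrophage, adipocyte and lymphocyte transcripts in these differences was not tested.

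In dnCREB lung PM gave 0 called of 8, with 1 gene at an unadjusted p under 0.05, where 0.00862% of all genes were called. That gene was Tgfb3, at 7.76, 8.02 and 7.71 under PBS and 8.43, 8.42 and 8.40 under PM, without overlap (0.59 ± 0.24 (SE), adjusted p = 0.4595). Tgfb2 differed by 0.41 ± 0.23 (adjusted p = 0.6155), Tgfb1 by 0.54 ± 0.65 (adjusted p = 0.8510) and Tgfbr3 by -0.58 ± 0.34 (adjusted p = 0.6253). The interaction of genotype and PM was called for 0 of 8 genes, with 0 at an unadjusted p under 0.05, where 0.00862% of all genes were called.

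The genotype gave 0 called of 8 in lung under PBS, with 1 gene at an unadjusted p under 0.05, where 0.0259% of all genes were called, and 0 of 8 under PM, with 0 at that level, where 0% were called. Tgfb2 was that gene, at 8.41, 8.98 and 8.51 in dnCREB PBS lungs against the WT values above (0.63 ± 0.23 (SE), adjusted p = 0.8747), and under PM it differed by 0.12 ± 0.23 (adjusted p = 0.9483). For Tgfb3 the lung differences were -0.04 ± 0.24 under PBS and 0.23 ± 0.24 under PM.

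**Figure D4:**
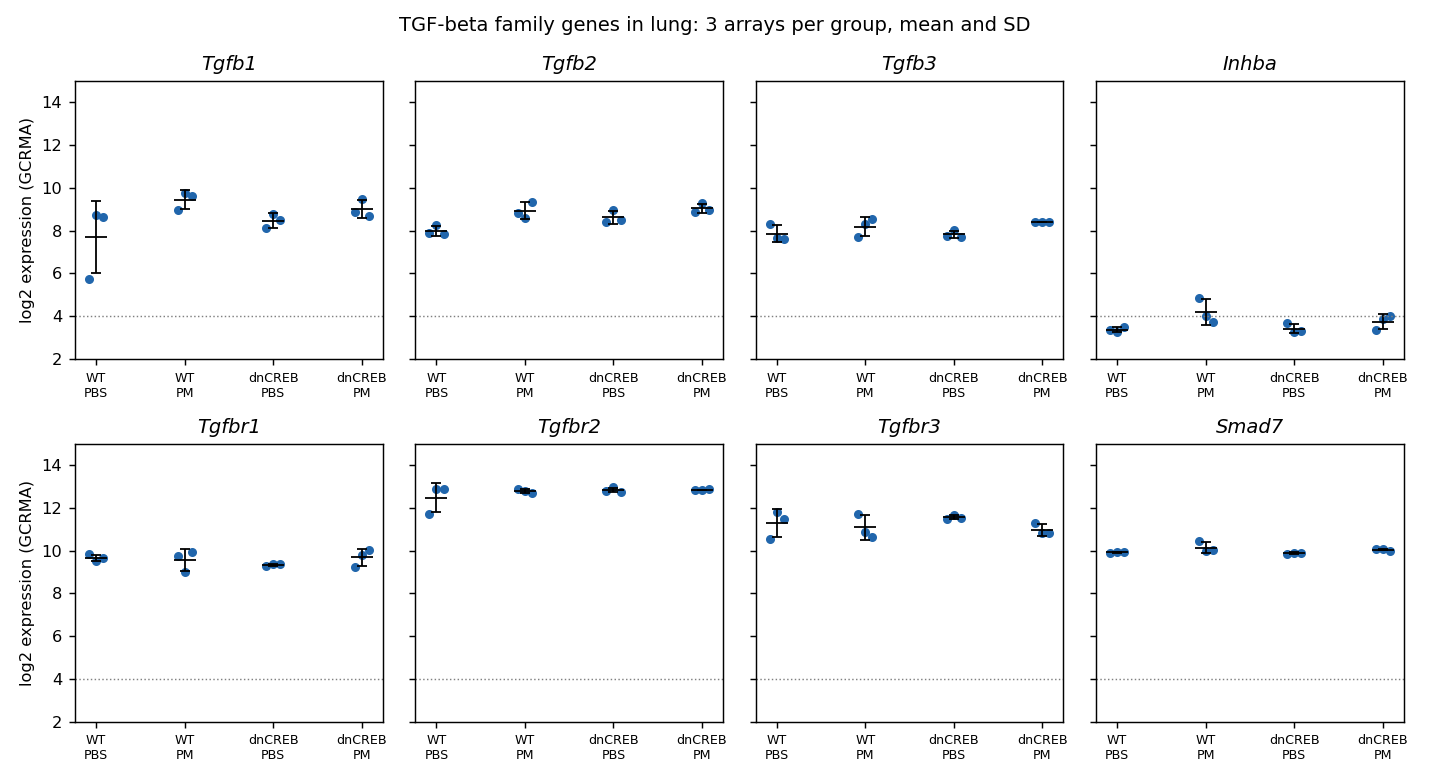
Log2 expression (GCRMA) of the 8 measured genes in lung, 1 panel per gene, with WT and dnCREB mice under PBS and PM along the x axis. Points are the 3 arrays of a group, bars the mean and SD, and the dotted line the log2 level of 4. The low Tgfb1 point at 5.76 and the low Tgfbr2 point at 11.69 are WT PBS replicate 1.

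The probe sets of Tgfbr1 and of Tgfbr2 disagreed with each other in dnCREB lung, while both Tgfbr3 probe sets were lower with PM. The Tgfbr1 probe set second in brightness stood at 5.71, 4.89 and 5.53 in dnCREB PBS lungs and at 3.35, 3.34 and 4.43 in dnCREB PM lungs, and fell by 1.67 on the log2 scale when all probe sets were tested together (adjusted p = 0.0382). In WT lung it stood at 4.27, 4.91 and 4.32 under PBS and 3.64, 3.37 and 3.13 under PM, at least 1.42-fold lower against the level of 4. The fitted difference of -1.13 ± 0.33 (SE) did not pass (adjusted p = 0.0784). This probe set passed the filter through the PBS lungs, where it is high, so both p-values are a description. The brightest Tgfbr1 probe set, in contrast, stood at 9.29, 9.38 and 9.37 in dnCREB PBS lungs and 9.26, 9.78 and 10.04 in dnCREB PM lungs. The second Tgfbr2 probe set stood at 7.66, 8.35 and 7.91 in dnCREB PBS lungs and 5.16, 5.13 and 6.49 in dnCREB PM lungs (-2.38 ± 0.55, adjusted p = 0.0664). The second Tgfbr3 probe set stood at 5.09, 5.78 and 5.34 and at 3.05, 3.70 and 3.73 in the same groups, at least 2.65-fold lower against the level of 4. Its fitted change was -1.91 ± 0.49 (adjusted p = 0.0944), the same direction as the brightest Tgfbr3 probe set. With its dnCREB PM lungs under 4, that p is a description too. For the second probe sets the dnCREB PBS and dnCREB PM lungs did not overlap. Skeletal muscle transcripts were high in dnCREB PBS replicates 1 and 3 and in dnCREB PM replicate 3. Their part was not tested.

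**Figure D5:**
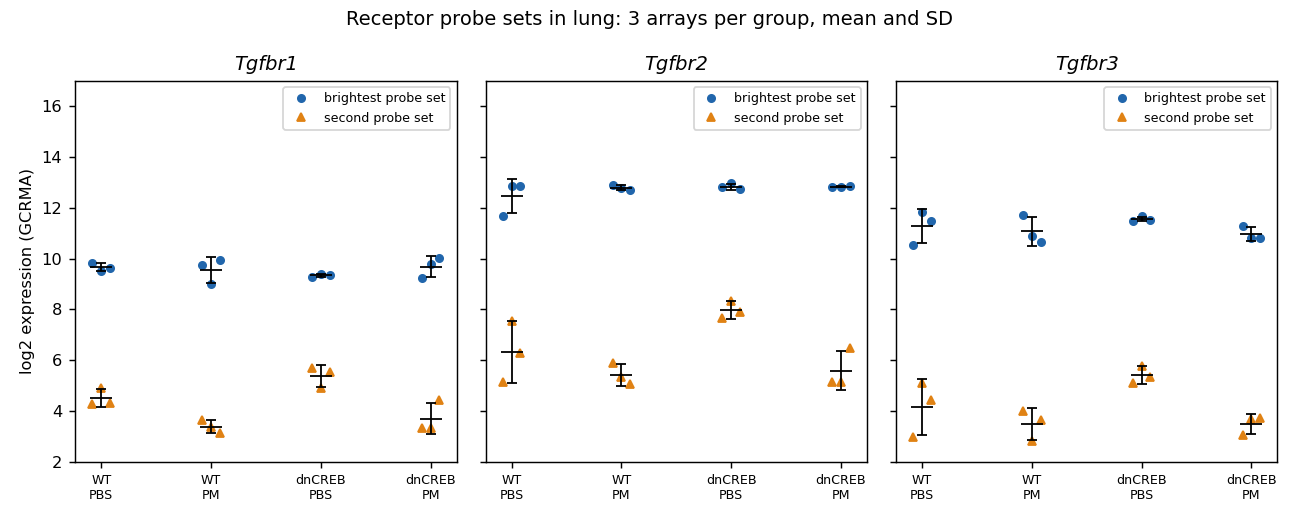
Log2 expression (GCRMA) in lung of the brightest probe set (blue circles) and the probe set second in brightness (orange triangles) of Tgfbr1, Tgfbr2 and Tgfbr3, by group along the x axis, with 3 arrays per group and bars for the mean and SD. In dnCREB lungs the second sets are lower under PM than under PBS without overlap, while the brightest sets of Tgfbr1 and Tgfbr2 overlap.

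Of the 56 other pathway genes, 48 were tested in lung, and 3 were higher and 0 lower with PM in WT mice, where 2.39% of all genes were called. Inhbb went from 7.69 ± 0.35 (SD, n = 3) to 9.53 ± 0.63, a rise of 1.83 ± 0.30 (SE) (adjusted p = 0.0199). Ltbp2 rose by 1.68 ± 0.37 (adjusted p = 0.0457) and Tgfbi by 1.18 ± 0.27 (adjusted p = 0.0474). The count of 3 fell to 0 with the skeletal muscle level in the model or without WT PBS replicate 2. It was 1 without WT PBS replicate 1 or WT PM replicate 2, and was 6 without WT PM replicate 1. Leaving out the lung arrays high in skeletal muscle leaves WT PM replicate 3 alone in its group, so no count is given for that fit. It was 8 in the joint model of both tissues, 5 with array weights and 0 in a fit of the compared groups alone. In each other lung comparison 0 of the 48 were called, but with array weights PM in dnCREB lung gave 12 higher and 1 lower, and dnCREB against WT under PBS gave 2 lower. The joint model gave 2 higher with PM in dnCREB lung. The counts from alternative fits have no share over all genes of the same fit beside them and are not read as an excess.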

How the data were processed

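The authors deposited log2 expression values per probe set for 24 arrays, made with GCRMA per the submitters' processing notes, of unstated version. This method corrects background from probe sequence, normalizes arrays against each other and summarises probe sets, and array medians differ between the tissues. No further normalization was applied.

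Of 45037 probe sets, 34945 had 1 gene symbol in the platform annotation, 932 had several and 9160 had none, and the latter 2 kinds were left out. Models were fitted in R 4.3.3 with limma 3.58.1, separately for the 12 arrays of each tissue with 4 group means, with genes kept that had at least 3 arrays above a log2 value of 4 and Benjamini-Hochberg adjustment over all of them at 0.05. Tissue differences came from a joint fit of 24 arrays over genes kept in either tissue. The fits were tested on simulated data. Where all arrays of a group lay under 4, folds are given against 4 as a lower bound.

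The genes, lists and tests were chosen with earlier results of these data known. Every listed gene is given. Of each pathway group, up to 4 called genes with the smallest p are named, and the 3 genes with the highest correlation to each called gene. Alternatives were other filters, scalings, models, covariates and left-out arrays. Within a tissue, same-numbered arrays of different groups did not deviate together (median r 0.03 in heart and -0.08 in lung), so numbers were not taken as pairs. Lungs were not compared with same-numbered hearts in that check, so a shared animal was not tested. Arrays give no counts, and their number limits the precision. Tables were made with Python 3.11.15 and plots with matplotlib 3.10.9.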

Additional observations from a re-analysis of the deposited data

Results flagged for a closer look

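The change with dnCREB differed between heart and lung for 4 genes, by a test of that difference with limma. For Tgfb2 the heart change exceeded the lung change by 3.58 log2 units in mice given PBS (adjusted p = 3.9e-05) and by 4.07 in mice given PM (adjusted p = 1.5e-05). For Tgfb3 the excess was 4.11 with PBS (adjusted p = 5.8e-05) and 3.58 with PM (adjusted p = 2.6e-04). Tgfbr1 exceeded by 1.60 under PBS (adjusted p = 0.0225) and Tgfbr2 by 1.29 under PM (adjusted p = 0.0414). The receptor calls are less stable. The Tgfbr1 call held in 18 of 23 alternative settings and was lost, for example, with quantile normalization (adjusted p = 0.0732). The Tgfbr2 call held in 7 of 23 and was lost, for example, with the sex-chromosome class in the model (adjusted p = 0.1225). Neither was called under the other treatment (adjusted p = 0.0891 for Tgfbr1 with PM and 0.3660 for Tgfbr2 with PBS). The probe sets second in brightness gave no called excess, at -0.69 ± 0.51 for Tgfbr1 with PBS and 0.155 ± 0.79 for Tgfbr2 with PM. The transgene is driven by a cardiomyocyte promoter, so heart and lung differ in its expression as well as in tissue, and these cannot be told apart.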

How the results depend on the processing

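Of 91 pairs of gene and comparison tested, 16 were called. The 8 calls of Tgfb2 and Tgfb3 held in every alternative run, and 0 of the 16 changed sign. Of the 75 other pairs, 6 were called in some alternative and 39 changed sign. In heart under PBS the count of 5 called genes became 3 with no filter, 2 with sex-chromosome class as a covariate, and 2 to 5 with 1 array left out. Under PM the count of 5 became 2 with that class and 3 to 5 with 1 array left out. In lung the count of 0 with PM in WT became 1 with array weights (Tgfb2) and 3 in the joint model of 24 arrays (Tgfb1, Tgfb2 and Inhba). That in dnCREB became 1 with array weights (Tgfb3). Inhba passed the lung filter only through PM lungs. The counts in alternative runs, for heart and lung, have no share over all genes of the same run beside them and are a description. The replicate block, for numbers that the pairing check did not tie together, ended the calls of Tgfb1 in heart under PM (adjusted p = 0.0510) and of the tissue difference of Tgfbr2 under PM (adjusted p = 0.0541) and no other of the 16. The block left the heart counts at 5 under PBS and 4 under PM. Quantile normalization and centring moved the median change of all heart genes under PBS from 0.09 to -0.09 and -0.13, and the split of 1311 higher and 558 lower genes to 1044 and 1213, and to 918 and 1187. Leaving out the 5 lung arrays high in skeletal muscle or the 2 least correlated lung arrays was chosen after seeing the data. Without the 5, WT PM replicate 3 and dnCREB PBS replicate 2 are the only lung arrays of their groups. Each group had 3 arrays, which limits small changes most.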
